A study of Homo sapiens with 6 samples.

Results

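Mitochondrial ribosomal protein genes were followed in RNA-seq counts from SW620, an established cell line from a human colorectal cancer. The genes were taken by symbol, as MRPL or MRPS followed by a number with at most 1 trailing letter, without antisense or pseudogene symbols. The deposited table held 78 of them among 20729 genes. All 6 libraries came from SW620 cells that the labels place in the groups siNC, given a control siRNA, or siOSBPL3, given an siRNA against OSBPL3, which encodes an oxysterol-binding-protein-related lipid carrier. Each group had 3 libraries. The labels do not name separate cultures, the siRNA sequences, the dose or the time, so the p-values rest on differences between libraries that may be only technical.

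The mitochondrial ribosome translates the messages of the mitochondrial genome, which encode core subunits of the respiratory chain and of ATP synthase. Its rRNAs are made inside the organelle, whereas its proteins are encoded in the nucleus, made in the cytosol and imported. Some of the proteins descend from bacterial ribosomal proteins and others exist only in mitochondria. The small subunit (MRPS symbols for the most part) decodes the message, and the large subunit (MRPL symbols for the most part) forms peptide bonds and delivers the chain to the inner membrane.

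Facts of the whole series frame these values. Libraries held 30040020 to 39701340 counts. OSBPL3, the targeted gene, had 176 ± 2.70 CPM (read counts scaled to library size with TMM factors, SD, n = 3) under siNC. Under siOSBPL3 it had 22.5 ± 15.4 CPM. Its log2 fold change was -2.97 ± 0.48 (SE, edgeR quasi-likelihood test, adjusted p = 0.0016), and -3.68 without siOSBPL3 replicate 1. The test covered 15506 genes and called 80.2% of them at a threshold of 0.05 (higher in siOSBPL3: 40.4%, lower: 39.8%). Among epithelial markers EPCAM was high in both groups (516 and 619 CPM in siNC and siOSBPL3), as were KRT8 (2996 and 2382 CPM) and CDH1 (229 and 207 CPM). KRT18 was high in both but lower in siOSBPL3 (2183 and 1131 CPM). KRT20 and CDX1 were near 0 in both. CDX2 (1.15 against 63.5 CPM in siNC and siOSBPL3), LGALS4 (0.404 against 9.08 CPM), CDH17 (12.2 against 41.3 CPM) and VIL1 (482 against 62.5 CPM) differed widely. Summed fibroblast markers (5 of 7 in the table) ran from 69.9 to 74.3 CPM in siNC and from 3.18 to 5.95 CPM in siOSBPL3. LUM made up most of the siNC sum (60.3 CPM) and had no count in siOSBPL3, and COL3A1 and DCN were near 0 in both. Summed leukocyte markers (6 of 7 in the table) ran from 20.4 to 22.9 CPM and from 11.7 to 17.4 CPM. CD68 (19.0 against 5.87 CPM in siNC and siOSBPL3) and LYZ (1.93 against 0.184 CPM) were lower, CD8A (0.649 against 4.54 CPM) and CD14 (0.278 against 3.06 CPM) were higher, and PTPRC and CD3E were near 0 in both. Summed endothelial markers (3 of 5 in the table) ran from 1.39 to 2.37 CPM and from 0.219 to 0.803 CPM. Whether the groups held the same cells was not tested, and an effect of the siRNA cannot be told apart from another difference between them. In bulk RNA, fewer cells of a kind and less RNA per cell cannot be told apart either.

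The mitoribosomal protein genes did not move as one unit. Of the 77 that could be tested, 39 were higher in siOSBPL3, 19 were lower and 19 did not pass the test (edgeR quasi-likelihood test, Benjamini-Hochberg adjustment over all genes tested). That is 75.3% called, close to the 80.2% of all genes. Changes of at least 2-fold were found in 12 members upward and 2 downward, 18.2% of the members tested. Among all tested genes 24.8% were higher and 24.1% lower by that measure. The median log2 fold change of the members was 0.23, against 0.00 for all genes, and the median of its absolute size was 0.54, against 1.00. Groups did not overlap in 60 of the 77 members, and in 83.0% of all tested genes. Among the genes that averaged 5 CPM or more, as 76 of the members did, the median absolute size was 0.82. No test was made between the members and other genes.

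**Figure D1:**
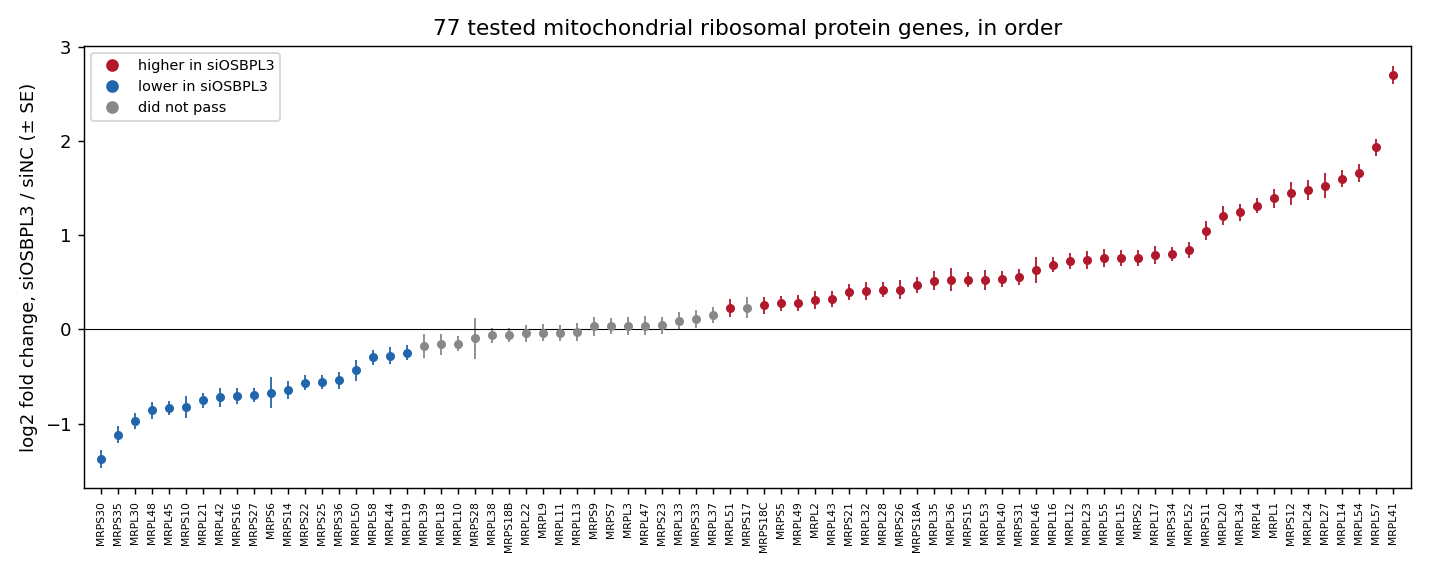
Log2 fold change of siOSBPL3 over siNC with its SE for each of the 77 tested mitoribosomal protein genes, in order of size, from 3 libraries a group. The series runs from MRPS30 at -1.38 to MRPL41 at 2.70, which stands apart from the next member, MRPL57 at 1.93. The 19 members that did not pass lie between -0.17 and 0.23.

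The split between higher and lower members changed with a correction for base composition and transcript length. Across the 77 members the log2 fold change was higher for transcripts with more G and C (Spearman 0.55) and lower for longer ones (Spearman -0.34). The same trends across all genes were 0.38 and -0.19, and genes of 1 library share its composition bias, so these correlations carry no p. Higher members had a median GC content of 53.1% and a median length of 1147 bases. Lower members had medians of 45.8% and 1705 bases. With a per-library correction for both properties, 28 members were higher and 32 lower, with a median of 0.02. In all genes so corrected, 40.0% were higher and 38.3% lower. Only 20 of the 39 rises and 15 of the 19 falls kept their direction and their call, and 9 rises became falls. The part of sequence composition in these differences was not tested. Corrected values are given beside many of the members below.

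**Figure D2:**
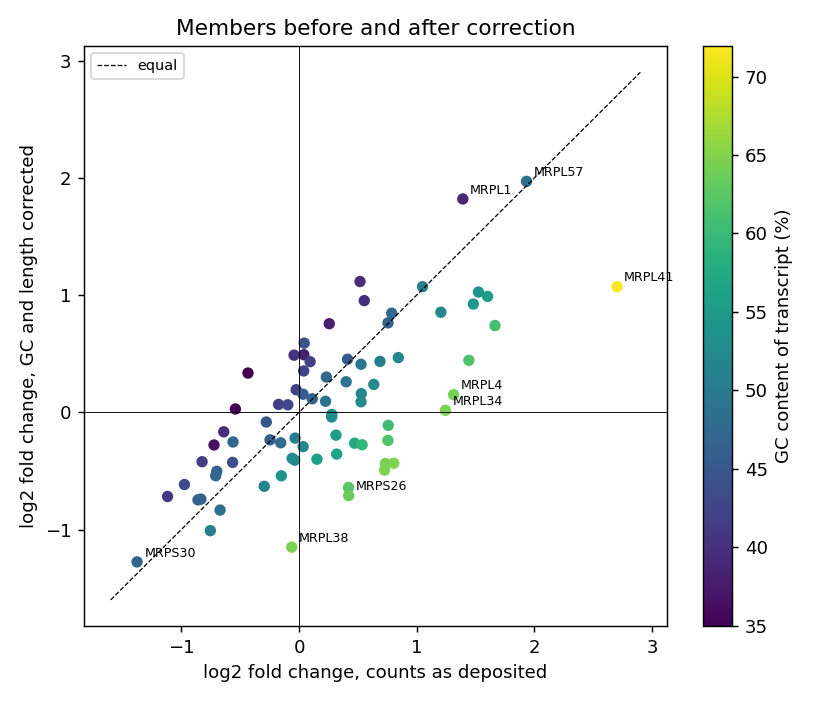
Log2 fold change of each of the 77 members from the counts as deposited (x axis) and after correction for GC content and transcript length (y axis), coloured by GC content. GC-rich members such as MRPL41, MRPL4, MRPL34 and MRPS26 fall below the dashed line of equal values, and GC-poor members such as MRPL1 lie above it.

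The largest rise was that of MRPL41, a protein of the large subunit with no bacterial counterpart. The gene lies on chromosome 9 (137551879 to 137552555, GRCh38.p14). It stood at 16.5, 15.3 and 16.9 CPM in the siNC libraries and at 98.3, 104 and 114 CPM in the siOSBPL3 libraries. The log2 fold change was 2.70 ± 0.09 (SE, adjusted p = 1.5e-10, edgeR). Its transcript had the highest GC content of the members at 71.9%, and after correction the log2 fold change was 1.07.

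MRPL57, also a large-subunit protein found only in mitochondria, was the next largest (chromosome 13, 21176658 to 21179084, GRCh38.p14). It stood at 30.5, 28.2 and 31.2 CPM in siNC and at 107, 113 and 123 CPM in siOSBPL3. Its log2 fold change was 1.93 ± 0.09 (adjusted p = 1.33e-09, edgeR) and 1.97 after correction for GC content and length. GENCODE names 5 pseudogenes of MRPL57, to which its reads could be split.

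MRPL54, mitochondrion-specific as well, stood at 15.1, 14.9 and 15.7 CPM in siNC and at 46.3, 47.0 and 51.5 CPM in siOSBPL3 (log2 fold change 1.66 ± 0.09, corrected 0.74). Among proteins shared with bacteria, MRPL14, which lies at the face where the subunits meet, rose from 35.5, 35.5 and 34.1 CPM to 95.2, 106 and 118 CPM (1.60 ± 0.09, corrected 0.99). MRPL27, which reaches towards the peptidyl transferase centre, rose from 21.3 ± 0.86 to 61.3 ± 11.7 CPM (1.52 ± 0.13, corrected 1.03). In all of these, every siOSBPL3 library lay above every siNC library.

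Further rises of at least 2-fold followed. MRPL1, part of the mobile L1 arm, rose by 1.39 ± 0.10 on the log2 scale from 23.3 CPM, and by 1.82 after correction. MRPL24, at the mouth of the exit tunnel, rose by 1.48 ± 0.11 (corrected 0.92), and MRPL20, a protein of early assembly in bacteria, by 1.21 ± 0.10 (corrected 0.85). MRPS12, the homologue of the S12 protein of the decoding site, rose by 1.44 ± 0.12 (corrected 0.44), and MRPS11, of the small-subunit platform, by 1.05 ± 0.10 (corrected 1.07). Exons of SARS2 on the opposite strand cover 21.5% of MRPS12, and the strand setting of the counting is not given in the sources used here. MRPL4 and MRPL34 were higher in the counts (1.31 ± 0.08 and 1.24 ± 0.09) but did not pass after correction (0.15 and 0.02).

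The 2 largest falls were those of MRPS30 and MRPS35. MRPS30, which despite its symbol sits in the large subunit, stood at 152, 139 and 151 CPM in siNC and at 49.5, 59.0 and 61.8 CPM in siOSBPL3. Its log2 fold change was -1.38 ± 0.10 (SE, adjusted p = 6.13e-08, edgeR), and -1.28 after correction (chromosome 5, 44808947 to 44815514, GRCh38.p14). MRPS35, a mitochondrion-specific small-subunit protein, stood at 259, 246 and 244 CPM in siNC and at 125, 103 and 118 CPM in siOSBPL3, with no overlap (log2 fold change -1.12 ± 0.09, adjusted p = 2.51e-07, corrected -0.72; chromosome 12, 27710832 to 27756295). MRPS35 was the most abundant member by CPM in siNC.

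Smaller falls followed in both subunits. MRPL30 fell from 156, 161 and 154 CPM to 76.5 CPM in siOSBPL3 replicate 2, 87.2 CPM in replicate 3 and slightly below both in replicate 1 (log2 fold change -0.97 ± 0.08), MRPL48 by 0.86 ± 0.09, and MRPL21 by 0.75 ± 0.08 on the log2 scale. MRPL42, specific to mitochondria, fell by 0.72 ± 0.11. In the small subunit MRPS10, MRPS14 and MRPS16, of bacterial type, fell by 0.82 ± 0.11, 0.64 ± 0.10 and 0.71 ± 0.09 on the log2 scale. MRPS27, an RNA-binding protein of the pentatricopeptide repeat family, fell by 0.70 ± 0.08. MRPS6 fell by 0.67 ± 0.16, with siOSBPL3 libraries spread from 27.9 to 49.3 CPM. SLC5A3 and AP000317.2 on the same strand cover 31.9% of its exons, so part of its reads cannot be assigned. Among these falls, MRPS14 did not pass after correction (-0.17).

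**Figure D3:**
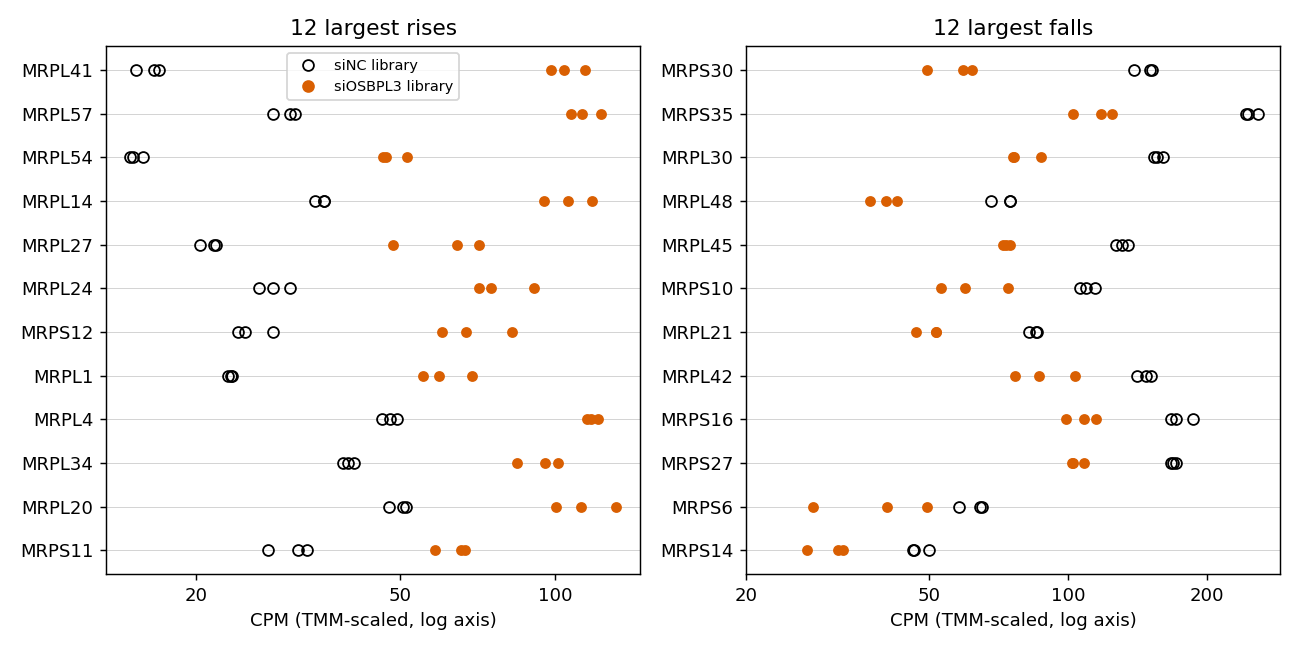
CPM (TMM-scaled, log axis) in each siNC library (open circles) and each siOSBPL3 library (filled circles) for the 12 members with the largest rises (left) and the 12 with the largest falls (right). The 24 genes were chosen among those whose groups do not overlap, and siOSBPL3 libraries lie further apart than siNC libraries in many, MRPS6 and MRPL27 among them.

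The 19 members that did not pass the test held some of the core of the ribosome. MRPL3, a protein of the peptidyl transferase region, stood at 204, 202 and 189 CPM in siNC and at 180, 210 and 223 CPM in siOSBPL3, with groups that overlapped (log2 fold change 0.04 ± 0.09). MRPL9, MRPL11, MRPL13, MRPL22, MRPL38, MRPL47, MRPS7, MRPS9, MRPS18B and MRPS23 all lay between -0.06 and 0.04, with an SE of 0.08 to 0.10. MRPS33, MRPL33, MRPL37 and MRPS17 lay between 0.09 and 0.23, and MRPL39, MRPL18 and MRPL10 between -0.17 and -0.15. A p that misses the threshold does not show that these levels were equal. After correction 7 of the 19 were higher and 8 lower. MRPL38, with a GC content of 64.6%, moved furthest, from -0.06 to -1.15.

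A pair of members was read too rarely to follow. MRPS28 had 116 to 139 counts per library in siNC and 115 to 182 in siOSBPL3, and 42.0% of its exons lie under another gene annotated on the same strand. MRPS24 had 1 count in each siNC library and 0, 5 and 0 counts in the siOSBPL3 libraries, and was not tested. In GENCODE 29 the readthrough gene URGCP-MRPS24 covers most of its exon bases, and reads that fall on both cannot be assigned to 1 gene. Overlaps of at least 25% of the exons were found for 13 members. MRPL46, MRPL9, MRPL12, MRPS18A, MRPS6, MRPL20 and MRPL4 are among them, and their levels are uncertain to that extent.

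Both subunits held rises and falls. Of the 51 large-subunit genes (by structure, with MRPS30 and MRPS18A), 29 were higher, 10 lower and 12 did not pass, with a median log2 fold change of 0.32. Of the 25 tested small-subunit genes 10 were higher, 8 lower and 7 did not pass, with a median of 0.04. That was 56.9% higher and 19.6% lower in the large subunit, and 40.0% and 32.0% in the small. Among all tested genes 40.4% were higher and 39.8% lower. The difference between the subunits was not tested. After correction the counts were 21 higher and 21 lower in the large subunit, and 7 higher and 11 lower in the small. All genes so corrected were 40.0% higher and 38.3% lower.

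Proteins shared with bacteria and mitochondrion-specific ones were counted apart, again without a test of the difference. In the large subunit 18 of 30 shared genes were higher and 3 lower (median 0.47), against 11 higher and 7 lower of 21 mitochondrion-specific genes (median 0.23). In the small subunit 7 of 15 shared genes were higher and 4 lower (median 0.23), against 3 higher and 4 lower of 10 specific genes (median -0.01). The shares among all tested genes were 40.4% higher and 39.8% lower. Summed over the shared genes of the large subunit, the level ran from 2041 to 2104 CPM in siNC and from 2453 to 2865 CPM in siOSBPL3. Summed over the specific genes of the small subunit, it ran from 999 to 1032 CPM and from 826 to 872 CPM. In both of these sums the groups did not overlap, as in 83.0% of all tested genes taken singly. The sum over the specific genes of the large subunit overlapped (1472 to 1547 CPM in siNC, 1514 to 1685 CPM in siOSBPL3). That over the shared genes of the small subunit ran from 1005 to 1033 CPM and from 1035 to 1157 CPM. After correction 16 shared genes of the large subunit were higher and 11 lower (median 0.27), against 5 higher and 10 lower of the specific ones (median -0.08). In the small subunit 5 shared genes were then higher and 4 lower (median 0.06), against 2 higher and 7 lower of the specific ones (median -0.41). Abundant genes weigh most in the level of a sum, but need not make its difference between groups. Among the shared genes of the large subunit the most abundant was MRPL3, itself at a log2 fold change of 0.04. It stood at 199 CPM in siNC and 204 CPM in siOSBPL3. Larger differences were those of MRPL12 (112 and 185 CPM), MRPL4 (47.6 and 118 CPM) and MRPL20 (49.8 and 115 CPM). Of the 3 lower genes there, MRPL30 went from 157 to 79.9 CPM. Among the specific genes of the small subunit the most abundant were MRPS35 and MRPS27.

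The stalk recruits translation factors. Of its proteins MRPL12, which is also known to bind the mitochondrial RNA polymerase, was higher (112 ± 1.09 against 185 ± 17.2 CPM in siNC and siOSBPL3; log2 fold change 0.73 ± 0.09). MRPL10 (-0.15 ± 0.08) and MRPL11 (-0.03 ± 0.09) did not pass. MRPL12 turned with the correction, to -0.49, as MRPL10 went to -0.54 and MRPL11 to -0.22.

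Proteins around the exit tunnel went both ways. MRPL24, MRPL17 (0.79 ± 0.10) and MRPL23 (0.73 ± 0.10) were higher. MRPL45, which holds the ribosome to the inner membrane, fell from 131 ± 4.19 to 73.5 ± 1.44 CPM (-0.83 ± 0.08, corrected -0.74). MRPL22 and MRPL47 did not pass, and were both at 0.49 after correction, whereas MRPL23 went to -0.44. These neighbours at 1 site did not share a direction under either fit.

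The central protuberance, where mammalian mitoribosomes carry a mitochondrial tRNA in place of 5S rRNA, was mixed as well. MRPL27, MRPL46 (0.64 ± 0.14; corrected 0.24, not passed) and MRPL40 (0.54 ± 0.08) were higher, and MRPL40 was lower after correction (-0.28). MRPL48 and MRPL58 were lower, and MRPL18 and MRPL38 did not pass. MRPL58, a peptidyl-tRNA hydrolase that frees stalled ribosomes, went from 72.5 ± 4.25 to 59.1 ± 2.51 CPM (n = 3 each; -0.30 ± 0.08, corrected -0.63).

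The 3 MRPS18 paralogues, which occupy different sites, differed from each other. MRPS18A, in the large subunit, was higher (61.3, 56.6 and 62.2 CPM in siNC, 86.6, 84.3 and 79.0 CPM in siOSBPL3; 0.47 ± 0.08), but lower after correction (-0.26). MRPS18B, in the small subunit, did not pass (-0.06 ± 0.08), and was lower after correction (-0.39). MRPS18C, also in the small subunit, was slightly higher (0.26 ± 0.09, adjusted p = 0.0177, edgeR). That call was lost without siNC replicate 1 (adjusted p = 0.0541) or replicate 2 (0.0643), though MRPS18C was at 0.76 after correction. MRPS18A shares 56.9% of its exons with RSPH9 and MRPS18C shares 78.9% with ABRAXAS1, both on the opposite strand. MRPS36, now named KGD4 and known as a subunit of the 2-oxoglutarate dehydrogenase complex rather than of the ribosome, was lower (47.0 ± 3.31 against 32.3 ± 0.98 CPM; -0.54 ± 0.09), and at 0.03 after correction.

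Levels of the members were compared per kilobase of transcript, over the 76 with a mean of at least 5 CPM. The order of levels was kept in part (Pearson 0.65 between the groups' log2 levels across genes, a description). In siNC the highest were MRPL42, MRPL18 and MRPS35 at 160, 146 and 132 CPM per kb, and the lowest were MRPS11, MRPL35 and MRPS23 at 8.42, 12.6 and 12.8. In siOSBPL3 MRPL18 stood at 131 CPM per kb and MRPS35 at 60.9, while MRPL12 was at 180. The SD of log2 CPM per kb among members was 0.95 in each siNC library and 0.89 to 0.91 in the siOSBPL3 libraries. Members that rose stood lower in siNC than those that fell: their median went from 44.4 to 79.2 CPM, and that of the fallen from 96.8 to 63.3 CPM. The siNC level enters the fold change that sorted them, and such sorting by itself tends to place risen members lower in siNC. Across the 76 members the Spearman of the log2 fold change was -0.71 with the siNC level and -0.4 with the mean level of both groups. The length used for a gene is that of 1 annotated transcript, so a level per kb depends on that choice.

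**Figure D4:**
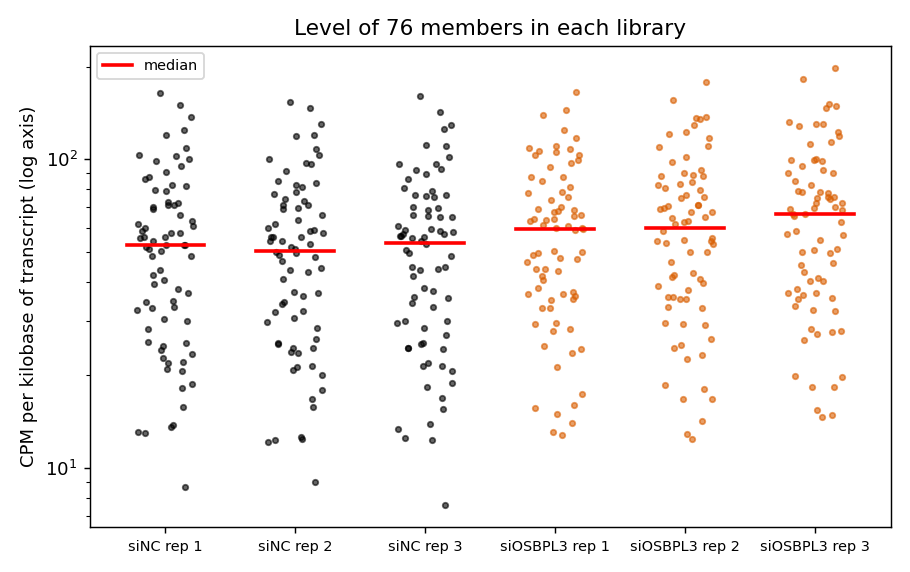
Level of each of 76 members in CPM per kilobase of transcript (log axis) in the 6 libraries, with the median as a red line. Medians lie between 50.6 and 53.8 in siNC and between 59.6 and 66.6 in siOSBPL3, and the SD of the log2 level among members is 0.89 to 0.95 in all 6.

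Libraries of a group differed more in siOSBPL3. The median coefficient of variation of the members was 3.21% in siNC and 8.66% in siOSBPL3, against 4.01% and 10.9% for all genes above 5 CPM on average. Replicate 3 of siOSBPL3 was the highest of its group for 57 of the 77 members, and replicate 1 the lowest for 51. Against the siNC mean the median member stood at 0.14, 0.19 and 0.31 on the log2 scale in siOSBPL3 replicates 1, 2 and 3. Without replicate 3 the median log2 fold change of the members was 0.14. Deviations of single libraries from the mean of their own group also followed GC content. The Spearman across all genes was -0.39 in siOSBPL3 replicate 3 and 0.18 and 0.20 in replicates 1 and 2. In siNC replicates 1, 2 and 3 it was -0.15, 0.01 and 0.15. Deviations within a group offset each other, so the values of its libraries are not independent. The part of GC content in the members' spread was not tested.

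Promoters of mitoribosomal genes are known for binding sites of NRF1, of the ETS factor GABPA and of YY1. RefSeq windows from 250 bases before to 50 after a start (GRCh38.p14) were found for 69 of the 78 members, and searched on both strands for CCGGAAG (ETS), GCGCA followed by any 1 base and GCGC (NRF1) and AAGATGGCG (YY1). The ETS letters were in 30 members (43.5%), against 12.2% of all genes with a window. NRF1 letters were in 9 of 69 (against 6.98% of all genes) and YY1 letters in 13 (18.8% against 2.14%). The ETS letters occurred in 17 of 35 higher members, 6 of 17 lower members and 7 of 16 that did not pass, so that both directions held them. YY1 letters were in 5, 4 and 3 of these. A match is a run of letters, not a measured binding site. To show the letters in genes that moved apart, the 160 bases before the start are printed for 3 members that rose (MRPL57, MRPL20, MRPL27) and 2 that fell (MRPL30, MRPL48), 5′ to 3′ on the gene's strand, with ETS and NRF1 matches of either strand in capitals.
MRPL57 (chr13:21176498-21176657, plus strand): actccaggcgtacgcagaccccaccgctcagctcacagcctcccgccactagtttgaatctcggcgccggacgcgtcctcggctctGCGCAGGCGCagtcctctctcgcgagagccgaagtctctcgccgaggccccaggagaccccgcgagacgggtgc
MRPL20 (chr1:1407294-1407453, minus strand): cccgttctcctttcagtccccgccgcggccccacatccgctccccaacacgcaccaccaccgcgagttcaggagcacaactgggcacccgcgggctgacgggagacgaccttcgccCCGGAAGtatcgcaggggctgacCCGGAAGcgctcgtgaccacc
MRPL27 (chr17:50373185-50373344, minus strand): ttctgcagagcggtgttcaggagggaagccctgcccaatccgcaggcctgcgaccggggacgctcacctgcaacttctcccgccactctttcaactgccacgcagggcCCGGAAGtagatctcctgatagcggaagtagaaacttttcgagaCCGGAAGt
MRPL30 (chr2:99181024-99181183, plus strand): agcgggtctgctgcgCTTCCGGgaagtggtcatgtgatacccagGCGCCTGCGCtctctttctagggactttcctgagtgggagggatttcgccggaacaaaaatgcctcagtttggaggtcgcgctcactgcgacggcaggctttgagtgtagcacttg
MRPL48 (chr11:73787714-73787873, plus strand): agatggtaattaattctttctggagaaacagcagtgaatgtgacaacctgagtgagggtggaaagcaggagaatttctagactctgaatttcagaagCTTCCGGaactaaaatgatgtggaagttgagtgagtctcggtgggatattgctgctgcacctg
MRPL57 holds 1 NRF1 match, MRPL20 and MRPL27 hold 2 ETS matches each, MRPL30 holds 1 of each kind and MRPL48 1 ETS match. The largest rise outside this set, MRPL41, had no match to the 3 motifs.

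Of the factors that read such sites, GABPA was lower, at 64.6 ± 2.48 CPM in siNC and 24.0 ± 2.14 CPM in siOSBPL3 (n = 3 each; log2 fold change -1.43 ± 0.09, corrected -0.53). NRF1 itself (0.12 ± 0.15) and GABPB1 (-0.21 ± 0.14) did not pass, though GABPB1 was higher after correction (0.52). YY1 (0.23 ± 0.09), ESRRA (0.79 ± 0.08, but -0.24 after correction) and PPRC1 (0.97 ± 0.10) were higher. PPARGC1A, a coactivator of mitochondrial biogenesis, had 1747 counts over the siNC libraries and 10 over the siOSBPL3 libraries, a ratio of 205 (95% exact counting interval 111 to 428), and PPARGC1B did not pass. In all, 3 of these 8 regulators were higher and 2 lower, 62.5% called against 80.2% of all genes.

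Some members share a divergent start with a neighbour, at most 1000 bases apart in GENCODE 29. There were 18 such pairs with a protein-coding gene, and in 11 of them both genes passed the test, 9 in the same direction and 2 in opposite ones. As 80.2% of all tested genes were called (40.4% higher, 39.8% lower), pairs with both genes called are common in any case. Divergent pairs of other genes were not counted. These calls are those without the correction. After it, MRPL43 (-0.36) and MRPS34 (-0.43) of the 9 pairs were lower and MRPL46 (0.24) did not pass. The other members of the 9 pairs kept their direction and call. MRPL46 and MRPS11 form 1 pair, 34 bases apart, and both were higher. MRPL57 and its partner SKA3 (1.37 ± 0.10) were both higher, as were MRPL36 and NDUFS6 (0.82 ± 0.10), a subunit of complex I. MRPL30 and MITD1 (-0.60 ± 0.11) were both lower. MRPL27 was higher and its partner EME1 lower (-0.77 ± 0.11), and MRPL50 was lower (-0.43 ± 0.11, but 0.33 after correction) while ZNF189 was higher (0.44 ± 0.11). No test was made of this agreement.

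Mitoribosomal proteins that carry other symbols also went both ways. AURKAIP1 (1.66 ± 0.08), GADD45GIP1 (37.5 ± 1.04 against 106 ± 6.94 CPM) and CHCHD1 (0.54 ± 0.11) were higher, and PTCD3 (-0.97 ± 0.08) and DAP3 (-0.29 ± 0.09) lower. AURKAIP1, a short GC-rich transcript, was at 0.27 after correction.

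Of 13 factors that drive mitochondrial translation, 8 were lower and 3 higher (median -0.43). That was 61.5% and 23.1% of them, against 39.8% and 40.4% of all genes tested. With the correction 5 were higher and 5 lower (median 0.07), beside 40.0% and 38.3% of all genes. The release factors MTRF1L (59.8 ± 1.44 against 21.1 ± 3.06 CPM) and MTRF1 (-1.14 ± 0.12) and the recycling factor GFM2 (-1.29 ± 0.08) were lower, at -0.99, -0.82 and -0.84 after correction. The elongation factor TUFM, at 301 ± 5.68 and 334 ± 10.2 CPM, did not pass, and was lower after correction (-0.45). Its exchange factor TSFM (0.72 ± 0.09), the initiation factor MTIF3 (0.98 ± 0.09) and the ribosome rescue factor MTRFR (1.09 ± 0.11) were higher.

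Of 23 assembly factors 11 were higher, 7 lower and 5 did not pass (median 0.05), 78.3% called against 80.2% of all genes. After correction 8 were higher and 11 lower (median -0.26), beside 40.0% and 38.3% of all genes. MALSU1, which docks on MRPL14 during assembly, was higher like MRPL14 (24.4 ± 2.07 against 68.4 ± 11.7 CPM; 1.49 ± 0.13, corrected 2.01). NGRN (1.17 ± 0.08) and the rRNA methyltransferase MRM2 (1.24 ± 0.10) were higher. TFB1M (-1.31 ± 0.09), which methylates the small-subunit rRNA, and METTL15 (-1.11 ± 0.09) were lower.

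Transcription and RNA upkeep in the organelle included large differences. TFAM, which packs mitochondrial DNA and starts its transcription, fell from 223, 216 and 224 CPM in siNC to 39.0, 48.5 and 55.4 CPM in siOSBPL3 (-2.21 ± 0.12, corrected -1.40). LRPPRC, which stabilises mitochondrial mRNAs, fell from 576, 579 and 562 CPM to 268, 298 and 313 CPM (-0.97 ± 0.08, corrected -0.26), while its partner SLIRP rose (0.59 ± 0.10). MTERF1, a factor that binds within the mitochondrial genome, had 2130 counts over the siNC libraries and 1 over the siOSBPL3 libraries, a ratio of 2498 (95% exact counting interval 448 to 98710). POLRMT was higher (0.77 ± 0.11) and TEFM slightly so (0.35 ± 0.12), and TFB2M did not pass (0.04 ± 0.10). POLRMT was at -0.27 after correction.

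Counts of the mitochondrial genes whose messages the mitoribosome translates were mostly higher, with 3 marked exceptions. These are counts per gene, not levels of separate messages. Summed over these 13 genes, the level ran from 65490 to 66220 CPM in siNC and from 76300 to 78980 CPM in siOSBPL3. The table gives them by short symbols (ND1, COX1, CYTB and so on), and 9 were higher and 4 lower. In shares these are 69.2% and 30.8%, against 40.4% and 39.8% of all genes tested. ND3 (1.72 ± 0.10), CYTB (1.17 ± 0.08), COX2 (0.95 ± 0.06) and ND5 (0.69 ± 0.10) were higher. ATP8 stood at 654, 651 and 641 CPM in siNC and at 146, 178 and 150 CPM in siOSBPL3 (-2.04 ± 0.09, corrected -1.05). The neighbouring ATP6 was higher (0.27 ± 0.07, corrected 0.41). ND4L (-1.90 ± 0.13, corrected -1.28) was likewise lower beside ND4, which was higher (0.19 ± 0.07, corrected 0.37). ND6 (-1.77 ± 0.10, corrected -1.47), encoded on the opposite strand from the others, was lower. ATP8 overlaps ATP6 and ND4L overlaps ND4 in the genome, so reads on the shared bases cannot be assigned to 1 gene. ND1, ND2 and COX3 were higher by 0.21 to 0.41, and COX1 slightly lower (-0.17 ± 0.06). ND1 (0.13) and COX1 (-0.08) did not pass after correction. Mitochondrial rRNAs were not analysed here.

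Values for 2 other protein families are set beside the members. Of 76 nuclear-encoded oxidative phosphorylation subunits 39 were higher and 17 lower (median 0.24), with NDUFC1 (1.63 ± 0.09) and ATP5MC1 (1.41 ± 0.08) higher and NDUFS1 (-1.52 ± 0.08) lower. Of 79 cytosolic ribosomal protein genes 21 were higher and 45 lower (median -0.30), with RPS23 (-1.53 ± 0.08) lower and RPS26 (1.41 ± 0.08) higher. Calls made up 73.7% of the first list and 83.5% of the second, against 80.2% of all genes tested. Among all genes 40.4% were higher and 39.8% lower. After correction the medians were 0.02 for the members, 0.16 for oxidative phosphorylation and -0.59 for cytosolic ribosomes. The differences between these lists were not tested. Cytosolic ribosomal protein genes have many processed pseudogenes, so reads can be split.

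**Figure D5:**
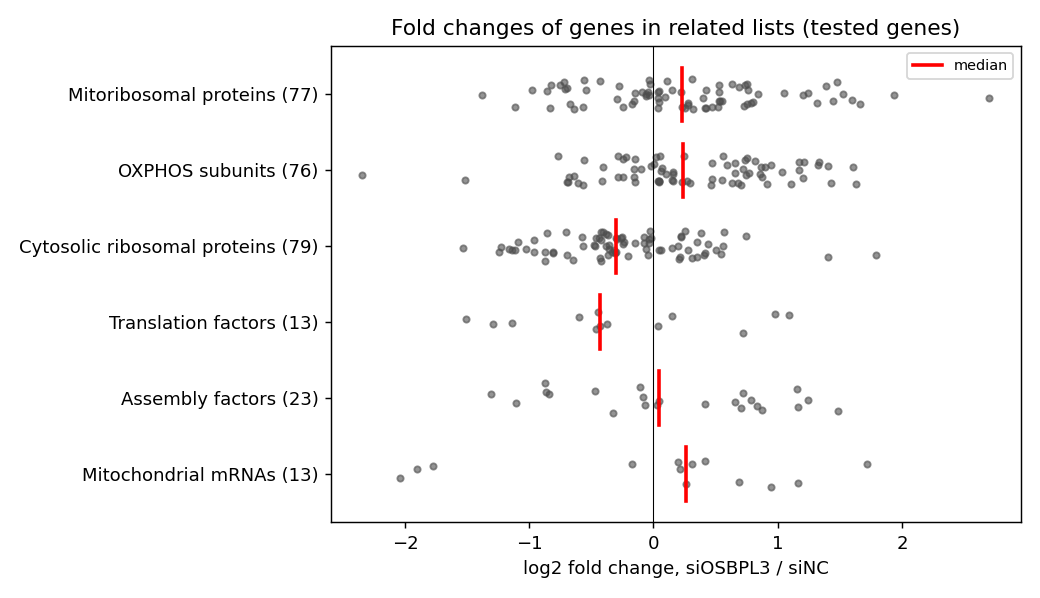
Log2 fold change (x axis) of each tested gene in the mitoribosomal proteins and in 5 related lists, with the median of each list as a red line. Medians are 0.23 for mitoribosomal proteins, 0.24 for oxidative phosphorylation subunits, -0.30 for cytosolic ribosomal proteins and -0.43 for translation factors, and every list holds genes on both sides of 0.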

How the data were processed

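RNA was sequenced in 3 siNC and 3 siOSBPL3 libraries. Per gene symbol, the authors deposited whole-number counts of reads without normalization, and HISAT2 2.2.1, HTSeq 0.13.5 and GRCh38 (hg38) are named in the submitters' processing notes. The annotation, strand setting and counting options are not given in the sources used here. Groups came from sample titles and columns from library names, and no pair of replicates agreed within counting noise (chi-square divided by its degrees of freedom ran from 2.94 to 48.9).

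Counts were tested with edgeR 4.0.16 (R 4.3.3): filterByExpr (minimum count 10, total 15), TMM, robust quasi-likelihood on group, two-sided, Benjamini-Hochberg over 15506 genes, threshold 0.05. The SE is the log2 fold change over the root of F. The fit was also run on simulated counts with far fewer changed genes than here and the same spread in both groups. That run cannot give the error rates in these data. Alternatives were DESeq2 1.42.0, limma-voom 3.58.1, RLE factors, library totals, other filters, a threshold of 0.01, a replicate block, libraries left out, and a per-library smooth correction for GC content and length of GENCODE 29 transcripts (14120 genes, mgcv 1.9.3). Positions and promoter windows are from RefSeq on GRCh38.p14. Intervals cover counting error only.

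Members and lists were chosen with earlier results of these data known. Genes named are OSBPL3, the 12 largest rises and 12 largest falls without overlap at a mean of at least 5 CPM, members that did not pass, structural groups, the 3 highest and lowest per kb, and leading genes of the other lists. Further ones, such as MRPL50 and the divergent partners, were chosen after their values were seen.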

Additional observations from a re-analysis of the deposited data

How the results depend on the processing

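Between 37 and 41 members were higher and 17 to 19 lower with limma-voom, DESeq2, library totals, RLE factors, a 5 CPM filter or none, and a threshold of 0.01. OSBPL3 stayed called under every alternative run. Leaving out 1 library gave 37 to 42 higher, 18 to 21 lower, a median of 0.14 to 0.28, and an OSBPL3 log2 fold change of -3.68 to -2.67. Deviations of same-numbered libraries were hardly correlated (-0.009 to -0.004), as were those of differently numbered ones (-0.023 to 0.029). These correlations cannot settle whether replicate numbers pair the libraries. With the replicate number as a block 38 members were higher and 19 lower. The call of MRPL51 was lost with the block (adjusted p = 0.0555) and without any siNC library or siOSBPL3 replicate 3. The correction for GC content and length, in which the cause was not tested, left 32 members lower and a median of 0.02, and with the replicate block 31 and 0.01. It turned 19 members, in each case with the correction alone and then with the block as well: MRPS34 to -0.43 and -0.44, MRPS2 to -0.11 and -0.12, MRPL55 to -0.24 and -0.24, MRPL23 to -0.44 and -0.45, MRPL12 to -0.49 and -0.50, MRPL40 to -0.28 and -0.28, MRPS18A to -0.26 and -0.26, MRPS26 to -0.71 and -0.72, MRPL28 to -0.64 and -0.64, MRPL43 to -0.36 and -0.36, MRPL2 to -0.20 and -0.20, MRPL49 to -0.02 and -0.02, MRPS5 to -0.04 and -0.04, MRPL37 to -0.40 and -0.40, MRPS7 to -0.29 and -0.30, MRPL13 to 0.19 and 0.19, MRPL22 to 0.49 and 0.49, MRPL50 to 0.33 and 0.33, and MRPS36 to 0.03 and 0.03. A further 19 changes of sign over all alternatives were between values that passed neither test. MRPS24 and MRPS28 had few counts, and the cause was not tested.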

Other observations

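The members lie on 21 chromosomes. All 4 on chromosome 19 (MRPS12, MRPL4, MRPL34, MRPL54) were higher in siOSBPL3, with a median log2 fold change of 1.38, but after correction for GC content and length MRPL4 (0.15) and MRPL34 (0.02) did not pass and MRPS12 was at 0.44. Of all genes tested 40.4% were higher and 39.8% lower. Of the 4 on chromosome 3 none was higher and 2 were lower (median -0.26). After correction MRPL47 (0.49) and MRPL3 (0.35) there were higher, and MRPS22 (-0.43) and MRPS25 (-0.25) lower. Of the 8 on chromosome 17, 2 were higher and 2 lower (median -0.01). With the correction MRPL27 (1.03) and MRPS23 (0.59) were higher and the rest of these lower. On chromosome 5, 3 of 5 were lower (MRPS30, MRPS27 and MRPS36), of which MRPS36 was at 0.03 after correction. These are counts over few genes, with no test.

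Among the middle-sized rises not described above, MRPL15 (0.76 ± 0.08, corrected 0.76), MRPL16 (0.69 ± 0.08, corrected 0.43), MRPL35 (0.52 ± 0.10, corrected 1.12) and MRPS31 (0.55 ± 0.09, corrected 0.95) held with the correction for GC content and length. MRPS34 (0.80 ± 0.08) and MRPS2 (0.76 ± 0.08) did not, at -0.43 and -0.11. Per kilobase, all genes with at least 5 CPM had an SD of log2 level of 2.11 to 2.13 in siNC libraries. Oxidative phosphorylation subunits had 1.45 to 1.46 and cytosolic ribosomal proteins 1.43 to 1.45, against 0.95 for the mitoribosomal proteins. The ratio of the upper to the lower quartile of these levels gave another order. It was 2.11 to 2.2 for cytosolic ribosomal proteins, 2.45 to 2.58 for mitoribosomal proteins and 2.67 to 2.89 for oxidative phosphorylation subunits in siNC. The SD counts single very low or high genes more than the quartiles do.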
